A study of Trichechus manatus latirostris with 11 samples.

Results

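The genes described here are the interleukin receptors and the JAK-STAT-SOCS signalling genes in the white blood cells of Florida manatees. The set holds 43 gene symbols, and a row belongs to it when its transcript record, read without the version number, carries 1 of these symbols in the RefSeq gene table of the TriManLat1.0 assembly. Of the 43 symbols 23 had a row in the authors' deposited values, on 25 of 15298 rows, because STAT3 and SOCS7 each had 2 transcript records. The other 20 symbols, IL2RA, IL2RB, IL4R, IL15RA, IL6R, IL12RB1, IL12RB2, IL1R1, IL1R2, IL1RAP, IL17RA, CSF2RA, CSF2RB, JAK2, TYK2, STAT5A, STAT5B, STAT6, CISH and PTPN2, had no matched row and are not analysed here.

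RNA was sequenced from the buffy coat, the layer of white blood cells that forms when blood is spun, of 11 adult manatees. The red tide group comprised 4 animals treated for red tide illness at the Lowry Park Zoo. The control group comprised 7 animals, of which 2 were sampled in Brevard County (Indian River Lagoon), 4 in Crystal River and 1 at the zoo while it recovered from pneumonia. The comparison asks how gene expression in blood cells differed between manatees exposed to red tide and manatees that were not. The groups also differed in place, date of sampling and care. The study's methods describe freezing for the red tide buffy coats as well as RNAlater for each animal, while the labels name RNAlater alone. Exposure and these differences cannot be told apart. The animals of the red tide group were exposed in the wild and had been in treatment for up to a week, so dose and time of exposure are unknown.

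The values analysed are mean normalized counts, which are read counts divided by a size factor of each library and averaged over a group. The columns do not name their groups. In all 15298 rows the first group mean entered the overall mean with a weight of 4 of 11 and the second with 7 of 11, so they average 4 and 7 libraries, as many as the red tide and control groups hold. The words for direction that the study uses follow the opposite assignment: genes it calls higher in red tide, such as BATF, have the higher value in the 7-library mean, and IL6, which it calls lower, has the higher value in the 4-library mean. Which group each mean belongs to is therefore not settled, and each direction below is given by the number of libraries and not by exposure. No column holds a single library. The reads of single libraries were worked out from the means where only 1 combination of whole reads gave the deposited value, which was possible in the 4 libraries for 10 member rows and in the 7 libraries for 5. The size factors, which put the libraries on a common scale, were 1.56, 1.03, 0.620 and 0.372 in the 4 libraries and 0.702 to 1.73 in the 7. They spread more widely than the reads per sample that the study gives, so they are not sequencing depth alone. The libraries cannot be linked to animals. For the remaining members the spread between animals is unknown, and their fold differences carry no test.

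Interleukins and colony-stimulating factors act on white blood cells through receptors made of 2 or more chains. Receptors of the common gamma chain, gp130 and IL-10 families carry Janus kinases (JAKs) on their inner side. The JAKs phosphorylate STAT proteins, which enter the nucleus and switch on target genes. Among these targets are several SOCS genes and CISH, whose products block the receptors and kinases and so limit the signal. Others are the genes of the PIM kinases, which favour cell survival. Receptors of the IL-1, IL-18 and IL-17 families signal through adaptor proteins rather than JAKs, and CSF1R is itself a tyrosine kinase.

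Of the 25 member rows, 18 differed by less than 2-fold between the group means, as did 10052 of all 15298 rows. The larger differences among the members lay in a few receptors, in PIM3 and in weakly expressed SOCS genes. A fold of 2 between the means was taken as a difference. By this rule 4 of the 25 member rows were higher in the 4-library mean, namely PIM3, IL10RA, SOCS1 and SOCS5, against 23.9% of all rows of the table. In the other direction 3 member rows were higher in the 7-library mean, namely IL18R1, IL18RAP and 1 record of SOCS7, against 10.4% of all rows. The shares of the members are thus near or below the background. Among the 20 member rows with an overall mean of at least 10 normalized counts, 2 were at least 2-fold higher in the 4-library mean (PIM3 and IL10RA) and 2 in the 7-library mean (IL18R1 and IL18RAP), where 12.3% and 9.59% of all such rows were. The median log2 ratio (4-library mean divided by 7-library mean) was 0.09 for the members and 0.14 for all rows. In bulk samples, fewer cells of a type and less RNA per cell cannot be told apart.

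**Figure D1:**
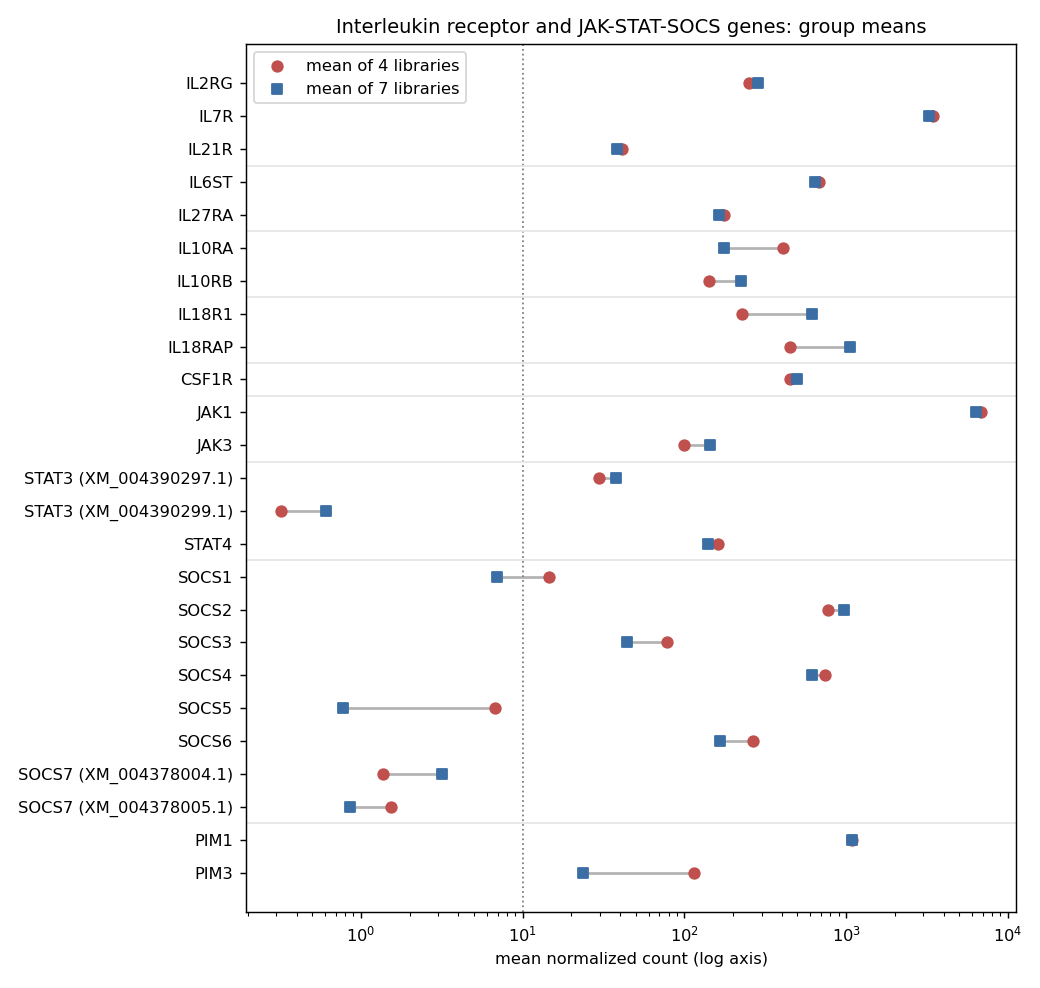
Mean normalized count (horizontal log axis) of each member row in the 4-library mean (red circles) and the 7-library mean (blue squares), grouped by role, with a dotted line at 10 normalized counts. The paired points of JAK1, IL7R and PIM1 nearly coincide, while PIM3 lay at 114 against 23.6 and IL18R1 at 227 against 615.

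**Figure D2:**
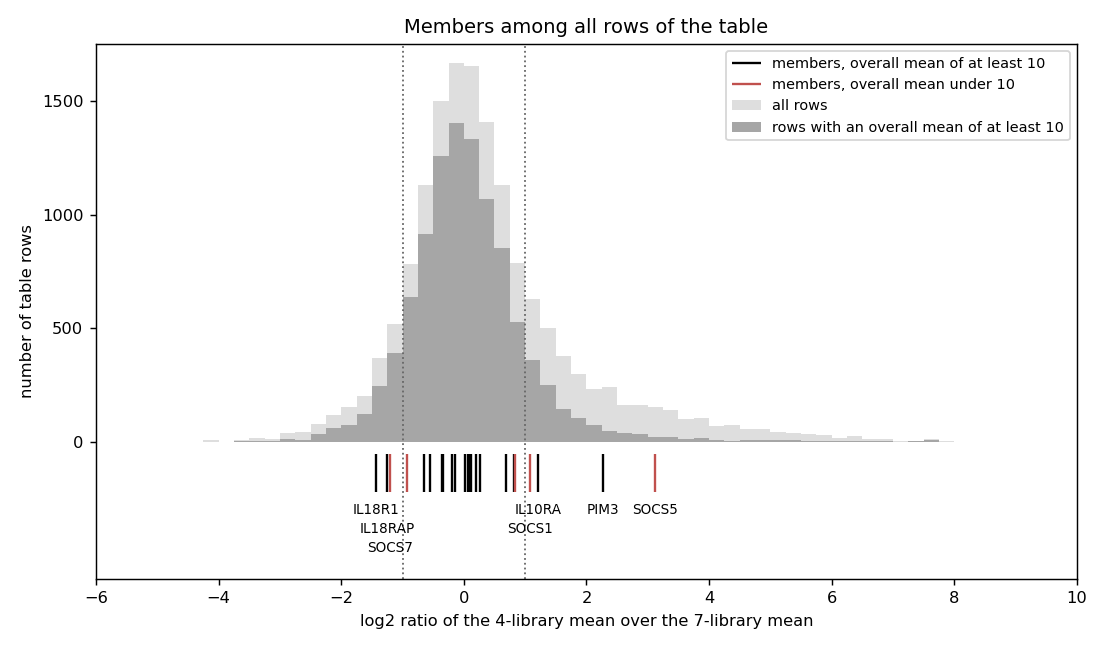
Number of table rows (vertical axis) by log2 ratio (4-library mean divided by 7-library mean), for all rows (light) and for rows with an overall mean of at least 10 (dark), with a tick for each member row below (black, overall mean of at least 10; red, under 10). Dotted lines mark a fold of 2 in each direction, and 18 of the 25 member rows lie between them.

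The receptors of the common gamma chain family were nearly equal in the group means. IL2RG, the common gamma chain itself, averaged 250.1 normalized counts in the 4 libraries and 285 in the 7. IL7R, the receptor chain for the survival factor IL-7 on T cells, had means of 3424 and 3255. IL21R, the receptor for the T cell cytokine IL-21, had means of 41.2 ± 9.42 (SD, n = 4) and 38.6. The 4 libraries of IL21R held 41.0, 31.1, 38.7 and 53.8 normalized counts in order of falling size factor, 3 of them above the 7-library mean and 1 below it. The log2 ratio of IL21R was 0.09 and changed sign, to -0.06, without the library of size factor 0.372.

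The same held for the gp130 and IL-12 family and for CSF1R. IL6ST, which encodes gp130, the signalling chain shared by the receptors for IL-6, oncostatin M and related cytokines, averaged 683 normalized counts in the 4 libraries and 638 in the 7, a log2 ratio of 0.10. IL27RA, which pairs with gp130 to bind IL-27, had means of 175 and 165. CSF1R, the receptor for macrophage colony-stimulating factor on monocytes, had means of 449 and 496, a log2 ratio of -0.14. The 6 members of these 3 receptor families with a row thus differed by at most 1.14-fold between the means.

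Of the chains of the IL-10 receptor, IL10RA differed past 2-fold and IL10RB did not, and their log2 ratios had opposite signs. IL10RA, the chain that binds the anti-inflammatory cytokine IL-10, averaged 409.8 normalized counts in the 4 libraries and 176 in the 7, 2.32-fold higher in the 4-library mean. Of all rows with an overall mean of at least 10, 9.14% had a larger log2 ratio than the 1.22 of IL10RA. IL10RB, the second chain, which is shared with other cytokines of the family, had means of 142 and 223, 1.57-fold higher in the 7-library mean (log2 ratio -0.65). The difference between the log2 ratios was 1.86, and the quotient of IL10RA to IL10RB normalized counts was 2.88 in the 4-library mean and 0.793 in the 7-library mean. Neither chain has known values in single libraries, so the spread behind this difference is unknown.

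Both chains of the IL-18 receptor were lower in the 4-library mean, and they gave the largest differences among the 10 member receptors. IL18R1, which binds IL-18, averaged 227 normalized counts in the 4 libraries and 615 in the 7, 2.71-fold higher in the 7-library mean (log2 ratio -1.44). IL18RAP, the accessory chain needed for signalling, had means of 447 and 1062, 2.37-fold higher in the 7-library mean (log2 ratio -1.25). Of the rows with an overall mean of at least 10, 3.84% had a smaller log2 ratio than IL18R1 and 5.81% a smaller one than IL18RAP. The quotient of IL18R1 to IL18RAP normalized counts was 0.508 in the 4-library mean and 0.579 in the 7-library mean. IL18, the ligand, looked up after its value was known, was also lower in the 4-library mean, at 333 against 779 normalized counts.

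Markers of neutrophils and of platelets also differed between the group means. For comparison, 23.9% of all rows were at least 2-fold higher in the 4-library mean and 10.4% in the 7-library mean. Of 16 neutrophil markers listed, 11 had a row, and 9 of the 11 were at least 2-fold higher in the 7-library mean. Their median log2 ratio was -2.36, and their summed level was 2886 normalized counts in the 4-library mean against 13093.5 in the 7-library mean. Of 5 platelet markers with a row, 4 were at least 2-fold higher in the 4-library mean, with summed levels of 15250.2 and 4419. The T cell markers with a row, 5 of 12 listed, had a median log2 ratio of 0.24 and summed levels of 3129.9 and 2403, and CD2 was the 1 marker at least 2-fold higher in the 7-library mean. For B cells (4 of 9 listed) the summed levels were 809 and 853, for monocytes (5 of 10 genes, on 6 rows) 2149.8 and 2659, for NK cells (3 of 9) 26.6 and 25.7, and for erythroid cells (3 of 9) 186 and 487. None of the 15298 rows was at 0 in either mean, so a marker with a row could not show that a cell type was absent. Defining markers such as CD3E, CD14 and PF4 had no matched row. The part of cell composition in the differences of IL10RA, the IL-18 receptor and PIM3 was not tested.

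**Figure D3:**
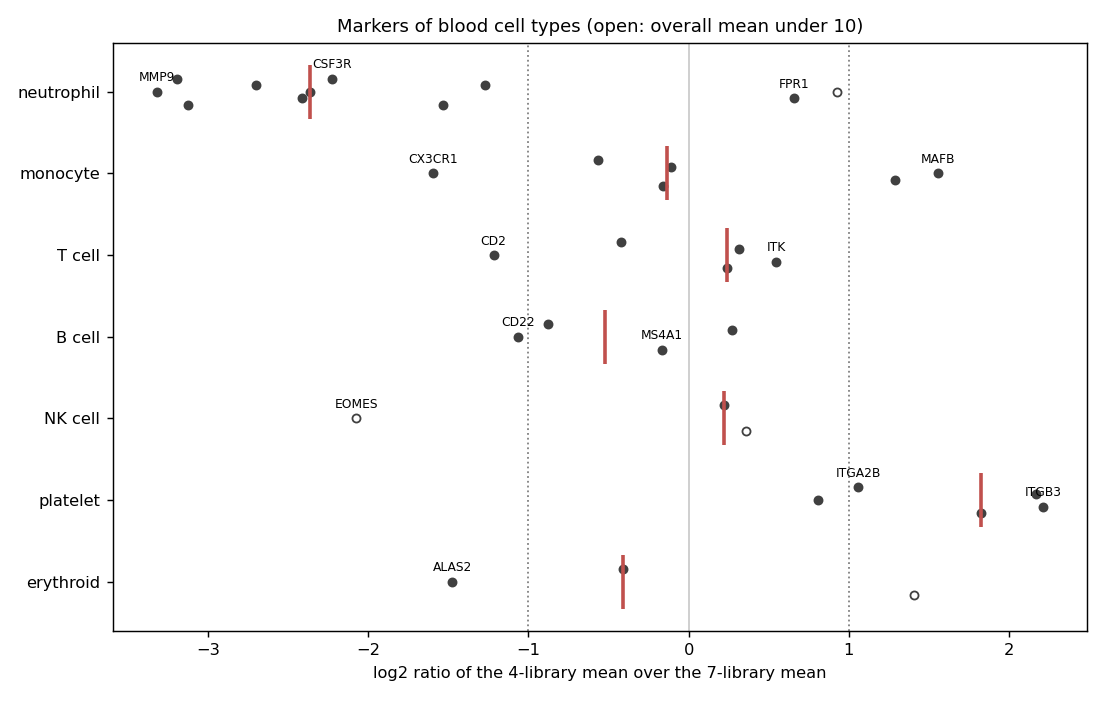
Log2 ratio, 4-library mean divided by 7-library mean (horizontal axis), of each marker row, by cell type; filled points have an overall mean of at least 10 normalized counts, open points less, and red bars are list medians. The neutrophil median lies at -2.36 and the platelet median at 1.82, while the T cell median lies at 0.24.

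Among the kinases, JAK1 serves receptors of the common gamma chain, gp130, IL-10 and interferon families. It averaged 6855 normalized counts in the 4 libraries and 6313 in the 7, a log2 ratio of 0.12. JAK3, the partner of the common gamma chain in lymphocytes, had means of 99.0 ± 31.1 (SD, n = 4) and 145, a log2 ratio of -0.55. The 4 libraries of JAK3 held 87.9, 78.8, 83.8 and 145 normalized counts in order of falling size factor. The library of size factor 0.372 lay at the level of the 7-library mean and the other 3 lay below it. Without that library the log2 ratio was -0.79.

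The STATs with a row were STAT3, which acts below gp130 and the IL-10 receptor, and STAT4, which acts below the IL-12 receptor. STAT4 averaged 160.3 normalized counts in the 4 libraries and 140.4 in the 7, a log2 ratio of 0.19. For STAT3 the record XM_004390297.1 had means of 29.5 ± 10.7 (SD, n = 4) and 37.8, a log2 ratio of -0.36. Its libraries held 34.6, 15.6, 27.4 and 40.4 normalized counts, and only the library of size factor 0.372 lay above the 7-library mean. The second record, XM_004390299.1, rested on 2 reads in the 4 libraries, both in 1 library, and on 6 reads in the 7, from 3 libraries. Its log2 ratio of -0.92 is compatible, from the 95% Poisson interval of the 2 reads alone, with values from -3.96 to 0.93. The exact permutation test gave p = 0.636, and without the library of size factor 1.53 of the 7-library group the log2 ratio was -0.25. The authors kept uniquely mapped reads, so reads shared by 2 records of 1 gene may have been split or left out, and the level of STAT3 and SOCS7 is uncertain for that reason.

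The PIM kinases differed from each other. PIM1 averaged 1093 normalized counts in the 4 libraries and 1081 in the 7, a log2 ratio of 0.02. PIM3 averaged 114 ± 36.8 (SD, n = 4) normalized counts in the 4 libraries and 23.6 in the 7, 4.84-fold higher in the 4-library mean (log2 ratio 2.28). The reads of PIM3 in the 4 libraries were 170, 68, 95 and 48, or 109, 66.2, 153 and 129 normalized counts in order of falling size factor. Each of the 4 libraries thus lay above the 7-library mean, the lowest at 66.2. Leaving out single libraries of the 4 gave log2 ratios of 2.10 to 2.46, and 3.02% of all rows with an overall mean of at least 10 had a larger one. The single values of the 7 libraries are not known for PIM3, so whether the groups overlap could not be seen.

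The SOCS genes, grouped here as feedback inhibitors, had log2 ratios from -1.20 to 3.12, those of the receptors running from -1.44 to 1.22. Of their 8 rows 6 were higher in the 4-library mean, as were 8629 of all 15298 rows. The 4 SOCS rows with an overall mean of at least 10 all differed by less than 2-fold. SOCS3, an inhibitor of signalling through gp130, averaged 78.3 ± 35.3 (SD, n = 4) normalized counts in the 4 libraries and 44.2 in the 7, a log2 ratio of 0.82. Its reads were 71, 60, 78 and 31, or 45.5, 58.4, 126 and 83.4 normalized counts, and each of the 4 libraries lay above the 7-library mean, the lowest by a small margin. Without the library of size factor 0.620 the log2 ratio of SOCS3 was 0.50. The libraries highest in SOCS3, those of size factor 0.620 and 0.372, were also the highest in PIM3. These are the smallest size factors of the 4, and a link between the genes was not tested.

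SOCS2, an inhibitor of growth hormone and related receptors, averaged 774 normalized counts in the 4 libraries and 976 in the 7, a log2 ratio of -0.33. SOCS4 had means of 739.5 and 618, a log2 ratio of 0.26. SOCS6 had means of 267 and 166, a log2 ratio of 0.69, or 1.61-fold higher in the 4-library mean. Together with SOCS3 these are the SOCS rows with an overall mean of at least 10.

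SOCS1, an inhibitor of interferon gamma and common gamma chain signalling, shows how a fold can rest on 1 library. It averaged 14.7 ± 20.9 (SD, n = 4) normalized counts in the 4 libraries and 6.96 ± 5.36 (SD, n = 7) in the 7, 2.10-fold higher in the 4-library mean. The 4 libraries held 7.70, 1.95, 3.22 and 45.7 normalized counts in order of falling size factor, from 12, 2, 2 and 17 reads. The 7 libraries ranged from 0.904 to 14.5, with a median of 5.97, from 64 reads. The library of size factor 0.372 lay above all others, while the other 3 of its group lay within the range of the 7. Without it the log2 ratio turned from 1.07 to -0.70. A two-sided exact permutation test of the 4 against the 7 libraries, with 330 arrangements, gave p = 0.558. At a wider tolerance a second combination of reads also gave the 7-library mean, so these values are less certain than those of the other members.

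SOCS5 had the largest fold among the members and very few reads. Its mean was 6.73 ± 7.28 (SD, n = 4) over the 4 libraries and 0.775 ± 1.42 (SD, n = 7) over the 7, 8.69-fold higher in the 4-library mean (log2 ratio 3.12). The 4 libraries held 12, 17, 0 and 1 reads in order of falling size factor. In the 7 libraries 6 reads came from 2 libraries, with 4 and 2 reads, and the other 5 libraries had none. The groups overlapped, and the exact permutation test gave p = 0.0909. The 95% Poisson interval of the 6 reads allows log2 ratios from 2.00 to 4.57, counting error only. The log2 ratio was 2.16 without the library of size factor 1.03 of the 4-library group and 4.48 without that of 1.107 of the 7-library group, and the exact permutation p ranged from 0.0333 to 0.25 with single libraries left out, the lowest without the library of size factor 0.620.

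The records of SOCS7 differed in direction. XM_004378004.1 had 5 reads in the 4 libraries and 25 in the 7, with means of 1.38 ± 1.84 (SD, n = 4) and 3.16 ± 3.88 (SD, n = 7), a log2 ratio of -1.20. Of its 25 reads 13 came from the library of size factor 1.105 of the 7-library group, and without it the log2 ratio was -0.33. It was -2.56 without the library of size factor 1.03 of the 4-library group. XM_004378005.1 had 7 reads in each group, with means of 1.53 ± 1.10 (SD, n = 4) and 0.858 ± 1.66 (SD, n = 7), a log2 ratio of 0.84, and 5 of its 7 reads in the 7-library group came from the same library. Without that library the log2 ratio was 2.63. Neither record separated the groups, with exact permutation p = 0.467 and p = 0.558.

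**Figure D4:**
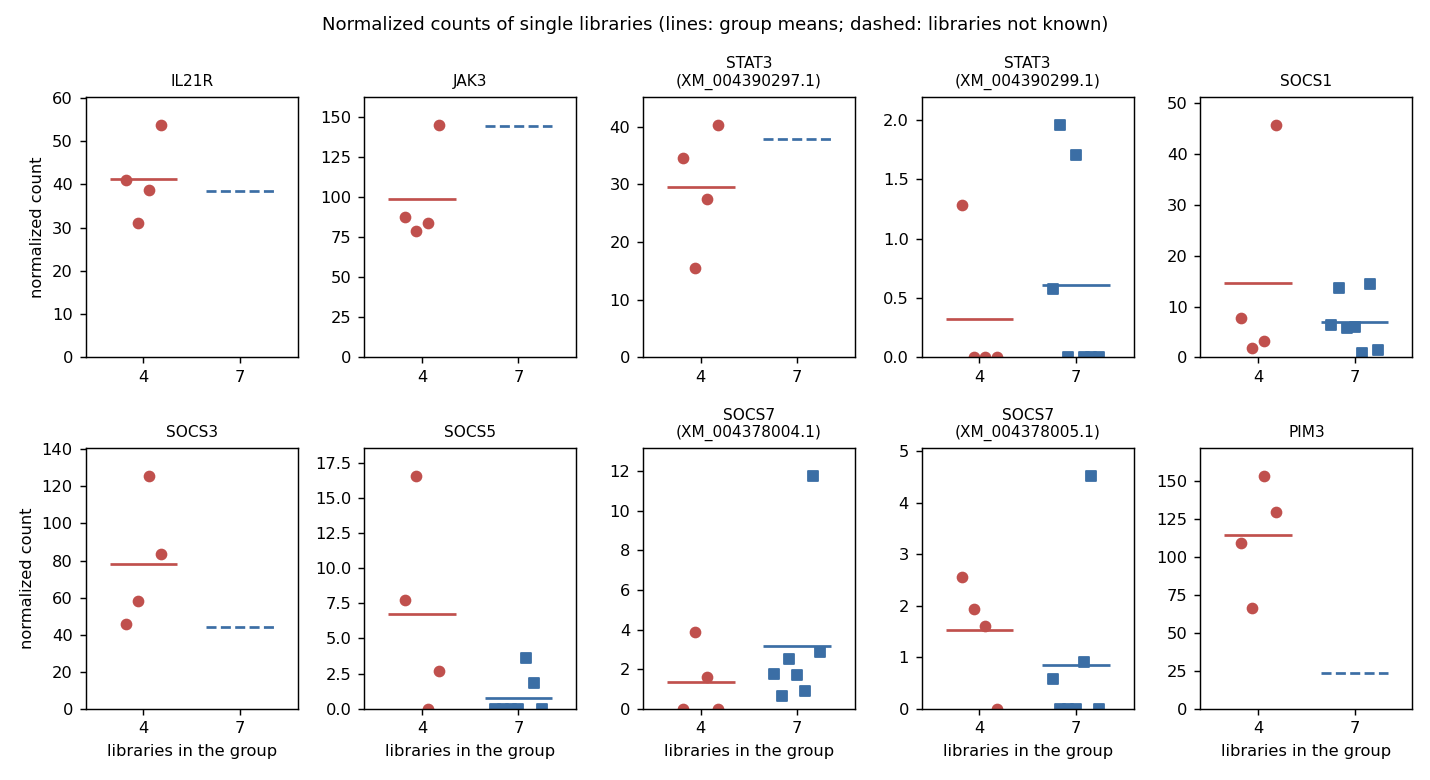
Normalized count (vertical axes, from 0) of single libraries of the 4-library group (red circles) and the 7-library group (blue squares), each in order of falling size factor from left to right, for the 10 member rows with known reads; solid lines are group means and a dashed line is a 7-library mean whose libraries are not known. All 4 libraries of PIM3 lie above the dashed line, while the SOCS1 mean of 14.7 is carried by 1 library at 45.7.

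The exact test was thus possible for 5 member rows (SOCS1, SOCS5, both SOCS7 records and the weaker STAT3 record), all of them weakly expressed. None reached an unadjusted p under 0.05, and the p-values adjusted by Benjamini-Hochberg over all 4613 rows with reads in 11 libraries lay between 0.398 and 0.894. Among those 4613 rows 14.3% had an exact p under 0.05 with the higher value in the 4-library mean and 0.694% in the other direction, 691 rows in all, or 983 when arrangements were counted by absolute difference. No row passed after adjustment of the exact permutation p-values: the smallest adjusted p was 0.212, and 4 against 7 libraries cannot give an exact p below 0.00606. Reads could be worked out up to a mean of 120 in the 4-library group but only up to 7 in the other, which favours rows higher in the 4-library mean, and the median log2 ratio of the 4613 rows was 1.27.

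Among the ligands of the pathway, differences past 2-fold were common. Of 23 ligands listed, 13 had a row, and all 13 differed by at least 2-fold, 9 with the higher value in the 4-library mean and 4 in the 7-library mean. Of all rows, 23.9% and 10.4% differed by at least 2-fold in these directions. Only 9 of the 13 ligands reached an overall mean of at least 10. Of these 9, 8 were higher in the 4-library mean and 1, IL18, in the 7-library mean, against 12.3% and 9.59% of all such rows. The others higher in the 7-library mean, IL2, IL4 and IL15, were weakly expressed. The median log2 ratio of the 13 ligands was 3.38. The largest differences toward the 4-library mean, whose group is unsettled as said above, were those of IL6 (597 against 0.941 normalized counts), IL1A (3116 against 17.4), IFNG (62.9 against 1.53), IL1B (19298 against 880.4), IL10 (42.7 against 2.42) and IL23A (35.4 against 2.25). IL6 and IL10 signal through IL6ST and through IL10RA with IL10RB, whose own log2 ratios were 0.10, 1.22 and -0.65. For IL10 each of the 4 libraries, with 21.5 to 58.4 normalized counts, lay above each of the 7, with 0 to 6.36 (exact permutation p = 0.00606, adjusted over all rows 0.212). For IFNG the 4 libraries ranged from 13.6 to 199 and the 7 from 0 to 4.62 (the same p-values). The value of 199 came from the library of size factor 0.372, the one highest in SOCS1, whose link to IFNG was not tested. Without that library the 4-library mean of IFNG was 17.5 and its fold over the 7-library mean 11.5 in place of 41.1, below those of IL1B (21.9) and IL10 (17.7). Without the library of size factor 1.73 of the 7-library group the fold of IFNG was 62.1, and the log2 ratio of IL6 was 10.17 in place of 9.31. For IL23A the groups overlapped, with 3.21 to 91.9 normalized counts in the 4 libraries and 0 to 9.97 in the 7 (exact permutation p = 0.0242, adjusted over all rows 0.324). Its fold of 15.8 was 7.37 without the library of size factor 0.620 of the 4-library group and 36.9 without that of 0.702 of the 7-library group. A separation of each of the 4 libraries from each of the 7 was found upwards in 2.8% of the 4613 rows and downwards in 0.065%, and in none of the 5 member rows. IL10, IFNG and IL23A were named for their large folds and reached an overall mean of at least 10 only through the 4-library group. They could be tested only because their 7-library means were low. Their p-values and separations are therefore no independent support for a difference.

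Other receptors of the pathway differed in both directions. Of 33 listed, 15 had a row (16 rows), 7 rows being at least 2-fold higher in the 4-library mean and 3 in the 7-library mean. The shares of all rows were 23.9% and 10.4%. Restricted to the 10 rows with an overall mean of at least 10, the counts were 2 and 3, against 12.3% and 9.59% of all such rows. IL13RA2, a decoy receptor for IL-13, had means of 365 over the 4 libraries and 55.8 over the 7, and GHR, the growth hormone receptor, had 19.1 ± 16.7 (SD, n = 4) and 7.12. CSF3R, the neutrophil receptor for granulocyte colony-stimulating factor and also 1 of the neutrophil markers, had means of 425 and 1990, 4.68-fold higher in the 7-library mean. IL5RA, the IL-5 receptor chain of eosinophils, had 2.51 ± 4.21 (SD, n = 4) and 19.2, and IL17RB had 6.75 ± 4.68 (SD, n = 4) and 14.1. Without the library of size factor 0.620 the fold of GHR was 1.77, under the limit of 2. Without the library of size factor 1.03, which held 9 of the 11 reads of IL5RA, its 4-library mean was 0.428 and its fold 44.9 in place of 7.64.

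Most of the other transducers and regulators differed by less than 2-fold, as did 10052 of all 15298 rows. Of 28 listed, 23 had a row (25 rows), and 21 rows lay within 2-fold, with a median log2 ratio of -0.15. The 3 with an overall mean of at least 10 that did not were STAM2, an adaptor bound by JAKs (2117 against 915), RNF7, a partner of the SOCS box ubiquitin ligases (74.3 ± 31.3, SD, n = 4, against 27.4), and SH2B2 (6.37 ± 5.28, SD, n = 4, against 17.2), the last of them higher in the 7-library mean. Without the library of size factor 0.620 the fold of SH2B2 was 4.11 in place of 2.71.

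Genes known to be induced through STATs also differed in both directions. Of 28 listed, 19 had a row (20 rows), of which 7 were at least 2-fold higher in the 4-library mean, 3 in the 7-library mean and 10 in neither, with a median log2 ratio of 0.40. The shares of all rows at least 2-fold higher were 23.9% and 10.4%. Among the listed genes higher in the 4-library mean were OSM, the gene for oncostatin M (392 against 38.7), CDKN1A, a cell cycle inhibitor (58.4 ± 23.4, SD, n = 4, against 8.10), and the AP-1 genes JUNB (4064 against 903) and FOS (4972 against 1277). Among those higher in the 7-library mean were BATF (134 against 17.4, with an SD of 11.04 over 4 libraries), a transcription factor of lymphocytes, and BCL6 (36.2 against 5.10 ± 6.43, SD, n = 4), a repressor induced by IL-6 and IL-21. Without the library of size factor 0.620 the fold of BCL6 was 18.4 in place of 7.10. These genes also respond to other signals, and the list cannot tell which acted.

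**Figure D5:**
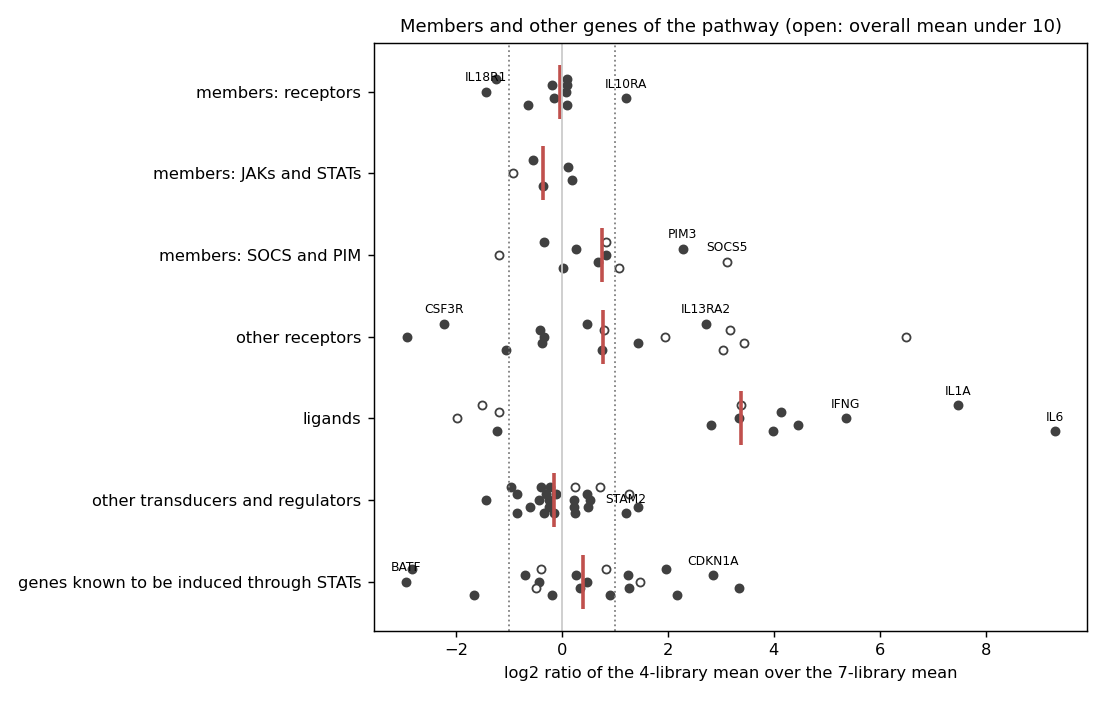
Log2 ratio, 4-library mean divided by 7-library mean (horizontal axis), of each row, for members by role and for other genes of the pathway by list; filled points have an overall mean of at least 10 normalized counts, open points less, and red bars are list medians. The median of the ligands lies at 3.38 and that of the transducers and regulators at -0.15.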

How the data were processed

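Buffy coats of 4 manatees with red tide illness and 7 controls were sequenced after depletion of ribosomal and globin RNA. The authors trimmed reads with Cutadapt and mapped them to TriManLat1.0 with Bowtie2. With in-house scripts of a University of Florida core facility, SAMtools and the DEB tool (DESeq and edgeR), the authors removed duplicates, counted uniquely mapped reads and compared the groups. The annotation release is not given in the sources used here. Deposited values are a signal that the authors made by dividing counts by DESeq size factors and averaging them over the libraries, in total and per group. The table also holds the fold changes and p-values of the authors' own comparison, which were not used. It has no column of a single sample.

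Members and gene lists were chosen with earlier results of these data known. Symbols came from the RefSeq gene table, for 10080 rows (65.9%); no coordinates or sequences are given. The value of 1 read in each library was read from the lowest means and refined by least squares, and every 4-library mean up to 120 and 7-library mean up to 7 was searched for whole reads that gave it, within the rounding of 10 significant digits and 1.5e-10 (1.5e-09 from a mean of 10). A single combination was found for 97.8% of 10565 and 97.3% of 4758 rows. The search was tested on simulated data with known reads. Normalized counts of single libraries are these reads divided by the size factor. Poisson intervals cover counting error only. The sources do not give more than 1 sample per animal. The exact permutation p-values set the difference of the group means against that of all splits of these samples.

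All members with a row were named, and of each other pathway list up to 6 genes with an overall mean of at least 10 and a fold of at least 2, largest first. A gene was counted as different past a fold of 2, with no test. Exact permutation p-values were 2 times the smaller one-sided p. The alternatives were folds of 1.5 and 4, centring, a minimum mean of 10, a pseudocount of 1, 1 row per symbol, log2 values in the test and leaving out single libraries. Added after the values had been seen were a wider tolerance, counting splits by absolute difference and leaving out libraries in the exact test and for other pathway genes. Python 3.11.15, NumPy 2.4.6, pandas 2.3.3 and SciPy 1.17.1 were used.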

Additional observations from a re-analysis of the deposited data

Results flagged for a closer look

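A library stood apart from the rest of its group, by the gap to its nearest neighbour as a share of the group's range, in 8 of 30 gene and group combinations examined; chance gives about 1 in 20 under normally spread values, which counts of a few reads are not. The library of size factor 0.372 of the 4-library group, the smallest of the 11 size factors, was the high one for SOCS1 (45.73 normalized counts), JAK3 (145.3) and IFNG (199.1). In the same group the library of size factor 1.56 held the only reads of STAT3 record XM_004390299.1 (1.283), and the library of size factor 1.03 was highest for IL5RA (8.762). In the 7-library group the library of size factor 1.105 was highest for both records of SOCS7 (11.77 and 4.526), and the library of size factor 0.702 for IL23A (9.97).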

How the results depend on the processing

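No paired analysis was possible because the columns carry no sample and no replicate number. The count of member rows past the fold in favour of the 4-library mean, 4 at a fold of 2, was 7 at a fold of 1.5 and 2 at a fold of 4, and it was 2 with an overall mean of at least 10. In favour of the 7-library mean the count of 3 became 5 at a fold of 1.5 and 0 at a fold of 4. Centring on the median of all rows left counts of 3 and 4, and turned the median log2 ratio of the members from 0.09 to -0.054. The exact test called 0 of 5 member rows, and 1 (SOCS5, p = 0.0455) when splits were counted by absolute difference in the exact permutation test; leaving out single libraries, it called 0 to 1, the 1 being SOCS5 without the library of size factor 0.620 of the 4-library group. At the wider tolerance a second combination of reads gave the 7-library mean of SOCS1, with an exact permutation p of 0.339. Of 74 log2 ratios with a library left out, 1 reversed, meaning that a ratio past a fold of 2 changed sign. It was that of SOCS1 (-0.70 without the library of size factor 0.372, in a range of -0.70 to 1.44). The smaller log2 ratio of IL21R also changed sign, from 0.09 to -0.06, without the library of size factor 0.372. A further 6 ratios moved by over 1.5-fold, all of SOCS5, SOCS7 and the weaker STAT3 record. In 1 more case, STAT3 record XM_004390299.1 without the library of size factor 1.56 that held all its reads in the 4 libraries, no ratio could be formed. For the other pathway genes, added after the values had been seen, 9 of 72 such ratios moved by over 1.5-fold and none reversed: those of IL5RA, GHR, IL23A, IFNG, SH2B2, BCL6 and, without the library of size factor 1.73 of the 7-library group, IL6 (log2 ratio 10.17 in place of 9.31). A pseudocount of 1 moved 2 of the 25 log2 ratios by over 1.5-fold. The small size factor of 1 library, 0.372, and the lack of single values for strongly expressed members limit what can be said of spread.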
